A study of Mus musculus with 8 samples.

Results

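The genes described are 55 genes of the cell cycle: 22 that act in DNA replication (S phase) and 33 that act in mitosis. They were listed by symbol and each was read from the array's probe sets that carry that 1 symbol alone, taking the probe set with the highest mean signal where a gene had several. Of the 55, 54 were measured (22 replication and 32 mitosis genes) among 19938 genes on the array, and Ccnb1 was not analysed here. The series measured messenger RNA in mouse T helper cells on an Affymetrix whole-transcript array, to follow the role of Tet2, which converts methylcytosine of DNA to hydroxymethylcytosine, in the differentiation of Th1 cells (known for interferon-gamma) and Th17 cells (known for interleukin-17). There were 8 arrays, 2 in each of 4 groups. Wild-type Th1 and wild-type Th17 cells came from Tet2(f/f) mice, which carry the Tet2 allele that Cre can delete but no Cre. The Th1 and Th17 cells labelled Tet2-deficient came from CD2(Cre)Tet2(f/f) mice, in which Cre is driven by CD2, a surface protein of lymphocytes, so that deletion is not limited to T helper cells. The labels give no age, no culture time and no statement on how many mice stand behind an array. The arrays of a group are titled biological replicates, and p-values measure only the spread between these arrays.

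A dividing T cell copies its DNA in S phase and separates the copies in mitosis. Genes for replication are mostly switched on by E2F transcription factors late in G1, and genes for mitosis later, by complexes that read a CHR element (cell cycle genes homology region) and by the factors B-Myb and Foxm1. T helper cells divide fast after activation, so a sample holds cells in every phase, and an array reads their mean. In such bulk samples, fewer cycling cells and less messenger RNA per cycling cell cannot be told apart.

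All values are log2 signals, and a value after ± is the standard error (SE) of the log2 fold change before it, with n = 2 arrays in each group compared. The median log2 signal over genes lay between 6.53 and 6.61 on the 8 arrays, and 48 of the 54 genes lay above it on every array. The exceptions were Cdc25c (above on 0 arrays), Cenpf and Kif4 (1 each), Ttk (3), Anln (4) and Cenpe (7). The T cell identity markers averaged 10.3 to 10.6 on every array, all 7 above the median, against 5.21 to 5.47 for B cell, 5.54 to 5.83 for myeloid, 5.48 to 5.89 for natural killer and 6.19 to 6.55 for CD8 T cell markers. Of these other markers, the myeloid gene Cd68 and the natural killer list's Prf1 and Eomes lay above the median gene on every array. The single Tet2 probe set gave 8.14 and 8.02 on the wild-type Th1 arrays against 8.12 and 7.98 on the Tet2-deficient ones, and 8.51 and 8.49 against 8.34 and 8.39 in Th17 cells. The log2 fold change was -0.03 ± 0.12 in Th1 (adjusted p = 0.982, limma) and -0.14 ± 0.12 in Th17 cells. Where its probes lie relative to the deleted part is not given in the sources used here, so this probe set does not check the genotype labels. Xist, the RNA that silences an X chromosome in female cells, was at 4.80 to 5.07 on all Th1 arrays. On the Th17 arrays it was at 5.15 and 10.1 (wild-type) and at 8.60 and 11.3 (Tet2-deficient). The Th17 arrays therefore differed in the sex of their RNA, and values that touch a result are given beside it.

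The promoters of both gene sets differed in the short motifs they held, which is why 3 of each are shown. RefSeq windows (assembly GRCm38.p6, 250 bases before to 50 after a start) matched 45 of the 54 genes in 48 windows, with no entry for Mcm4, Gins1, Ccne2, Ccna2, Cdc25c, Aurkb, Foxm1, Kif20a and Tpx2. An E2F-type run (TTTCCCGC, TTTCGCGC, TTTGCCGC or TTTGGCGC, on either strand) was in 7 of 20 replication windows (35%), in 2 of 28 mitosis windows (7.14%) and in 2.26% of all 32851 windows of the same length. The CHR letters TTTGAA, on either strand, were in 3 of 20 replication windows (15%), 20 of 28 mitosis windows (71.4%) and 17.9% of all windows. CCAAT, on either strand, was in 14 of 20 (70%) and 22 of 28 (78.6%), against 37.4% of all windows. In the windows of these genes, matches of different motifs overlapped 1 time. Below are the stretches of the 3 replication genes with an E2F-type run and the 3 mitosis genes with a CHR run that had the largest log2 fold change between subsets in wild-type cells. Each is read 5′ to 3′ on the gene's own strand, and capitals mark E2F-type, CHR and CCAAT matches, with 20 bases around the outermost where the window allows.
Cdc6 (chr11:98907993-98908040, plus strand): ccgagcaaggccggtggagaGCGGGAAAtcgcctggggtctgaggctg
Mcm5 (chr8:75109336-75109539, plus strand): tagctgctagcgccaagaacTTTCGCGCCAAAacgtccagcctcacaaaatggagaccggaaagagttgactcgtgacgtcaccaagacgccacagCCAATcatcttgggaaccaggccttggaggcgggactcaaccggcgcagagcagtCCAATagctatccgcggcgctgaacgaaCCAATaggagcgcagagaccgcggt
Mcm6 (chr1:128359695-128359835, minus strand): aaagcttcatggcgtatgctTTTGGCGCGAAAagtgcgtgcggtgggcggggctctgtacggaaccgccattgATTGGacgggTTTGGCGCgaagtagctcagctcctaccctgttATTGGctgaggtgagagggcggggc
Ttk (chr9:83834604-83834721, plus strand): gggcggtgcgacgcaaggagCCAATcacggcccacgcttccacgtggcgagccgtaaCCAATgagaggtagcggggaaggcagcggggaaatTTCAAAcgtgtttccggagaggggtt
Cdk1 (chr10:69352902-69353140, minus strand): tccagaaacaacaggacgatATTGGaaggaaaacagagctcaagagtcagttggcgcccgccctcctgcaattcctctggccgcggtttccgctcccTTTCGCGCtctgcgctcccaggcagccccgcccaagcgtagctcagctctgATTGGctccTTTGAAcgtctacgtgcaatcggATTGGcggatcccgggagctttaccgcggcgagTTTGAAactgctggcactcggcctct
Aurka (chr2:172370521-172370641, minus strand): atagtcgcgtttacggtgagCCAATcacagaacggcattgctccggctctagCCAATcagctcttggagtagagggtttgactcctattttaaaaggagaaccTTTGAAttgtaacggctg

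In Mcm5 and Mcm6, which encode subunits of the replicative helicase, E2F-type matches on both strands share bases and form the runs TTTCGCGCCAAA and TTTGGCGCGAAA. In Ttk, a spindle checkpoint kinase, the CHR letters stand on the opposite strand, as TTCAAA, 8 to 13 bases after the start, and 2 CCAAT runs precede them. Cdk1, the kinase that drives entry into mitosis, holds 2 CHR runs, 3 CCAAT runs on the opposite strand and, as 1 of the 2 mitosis genes, an E2F-type run. A match is a description of letters in this window, and binding was not measured in the series.

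Across the 8 arrays, the mitosis genes spread more widely than the replication genes, and both sets were highest on wild-type Th1 replicate 2 and Tet2-deficient Th17 replicate 2. The median of the 32 mitosis genes, each as its log2 signal minus its own mean over the arrays, was 0.08 and 0.32 on the wild-type Th1 arrays and -0.28 and -0.11 on the Tet2-deficient Th1 arrays. It was -0.10 and -0.14 in wild-type Th17 cells and -0.17 and 0.36 in Tet2-deficient Th17 cells, so that only in the last group did the arrays of a group lie on both sides of 0. The same median of the 22 replication genes was 0.01 and 0.25, -0.07 and -0.02, -0.04 and -0.10, and -0.21 and 0.10 in the same order. The SD between arrays of a group, pooled over groups, was 0.22 for the mitosis and 0.14 for the replication median.

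**Figure D1:**
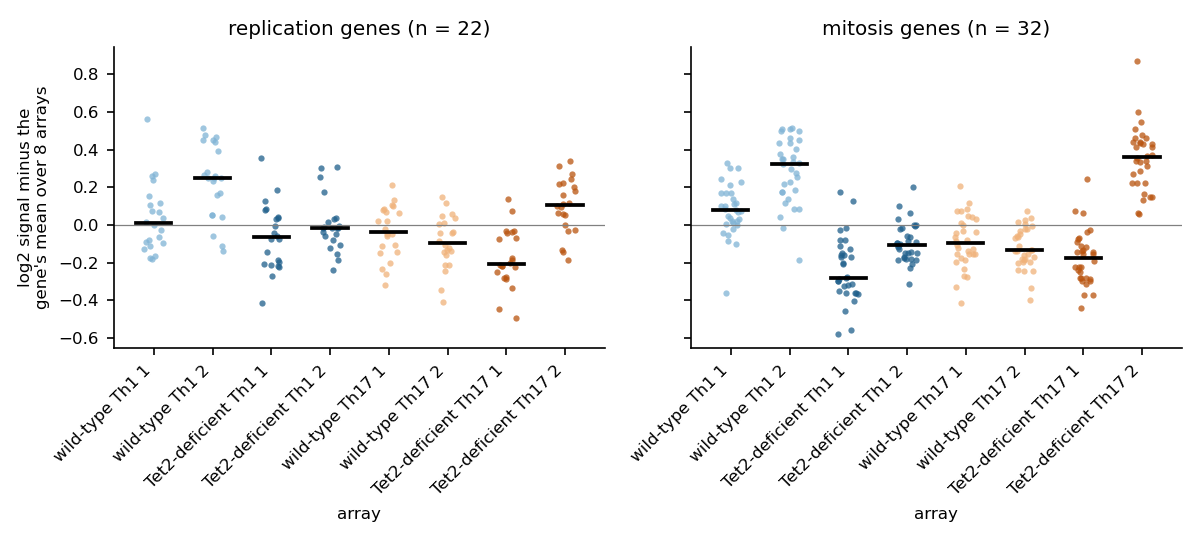
Each point is 1 gene's log2 signal minus its mean over the 8 arrays (y axis), by array (x axis), for 22 replication genes (left) and 32 mitosis genes (right), and the bar is the median. The mitosis medians run from -0.28 on Tet2-deficient Th1 replicate 1 to 0.36 on Tet2-deficient Th17 replicate 2.

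The arrays of a group differed most in Tet2-deficient Th17 cells. There all 22 replication and all 32 mitosis genes were higher on replicate 2 than on replicate 1, by a median of 0.28 and 0.53, against 44.4% of all genes. The smallest of the 32 mitosis differences was 0.21 and the largest 0.72. Replicate 2 is also the array with the highest Xist signal. In wild-type Th1 cells, 18 of 22 replication and 25 of 32 mitosis genes were higher on replicate 2 (53.9% of all genes), and in Tet2-deficient Th1 cells 12 of 22 and 25 of 32 were. In wild-type Th17 cells the counts were 8 of 22 and 13 of 32.

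**Figure D2:**
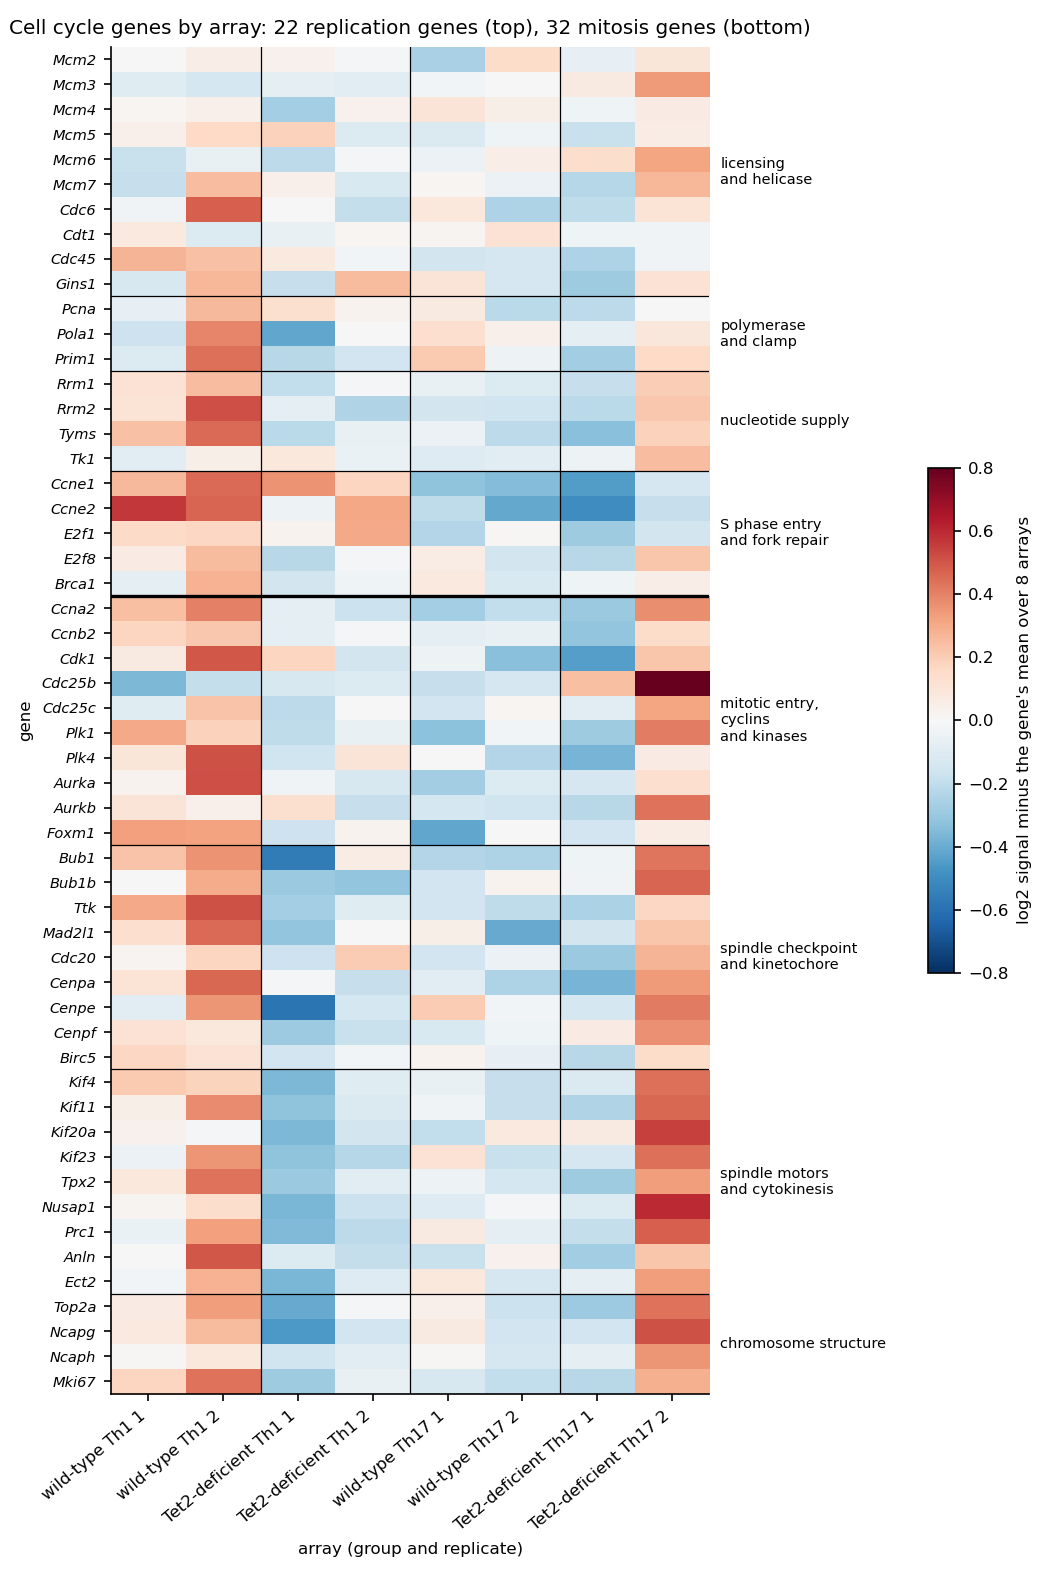
Colour gives each gene's log2 signal minus its mean over the 8 arrays, with genes as rows by role (22 replication genes above, 32 mitosis genes below the thick line) and arrays as columns by group and replicate. The mitosis rows are mostly blue on both Tet2-deficient Th1 arrays and red on Tet2-deficient Th17 replicate 2, and the colour scale ends at 0.8, which Cdc25b passes on that array.

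In Th1 cells, mitosis genes were below wild-type in the Tet2-deficient arrays almost throughout, by a median of -0.39 on the log2 scale, and replication genes by a median of -0.12, but no single gene passed the test. Without wild-type Th1 replicate 2 the replication median was -0.027 and the mitosis median -0.27, and without wild-type Th1 replicate 1 they were -0.22 and -0.53. Without Tet2-deficient Th1 replicate 2 the replication median was -0.20. By limma with Benjamini-Hochberg adjustment over all genes, 0 of the 54 were called at an adjusted p under 0.05, where 1 of 19938 genes was (0.00502%). The smallest adjusted p was 0.797. Of the 32 mitosis genes, 31 had a log2 fold change below 0, as did 18 of the 22 replication genes and 45.9% of all genes, whose median was 0.01. An unadjusted p under 0.05 in the lower direction was found for 18 mitosis and 3 replication genes, 21 of 54 against 2.84% of all genes. Both Tet2-deficient arrays lay below both wild-type arrays for 26 mitosis and 7 replication genes, 33 of 54 against 13.7% of all genes.

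Within the replication set, the 4 genes that make deoxynucleotides had a median of -0.38, and none of them passed the test. Tyms, thymidylate synthase, was at 8.52 and 8.73 on the wild-type and 8.07 and 8.22 on the Tet2-deficient Th1 arrays, which do not overlap. Its log2 fold change was -0.48 ± 0.16. Rrm2, the regulatory subunit of ribonucleotide reductase, was at 9.50 and 9.91 against 9.32 and 9.15, a log2 fold change of -0.47 ± 0.17, again without overlap. With Rrm1 (-0.29), the other subunit of that enzyme, 3 of the 4 nucleotide supply genes were below 0, and Tk1, thymidine kinase, was at 0.04. The 3 genes of the polymerase and clamp group had a median of -0.32. Of these, Prim1, the primase that starts each new strand, averaged 8.32 (SD 0.39) against 7.97 (SD 0.05); the log2 fold change was -0.35 ± 0.19. Pcna, the sliding clamp, was at 11.68 and 12.01 against 11.87 and 11.78 (-0.02 ± 0.15), with overlap.

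The 10 licensing and helicase genes had a median of -0.05, with 8 below 0 and a range from -0.32 to 0.04, which overlaps that of the nucleotide supply genes. A difference between these roles was not tested. Mcm2, a helicase subunit, was at 9.97 and 10.02 on the wild-type and 10.00 and 9.96 on the Tet2-deficient Th1 arrays, an overlap, with a log2 fold change of -0.02 ± 0.14. Mcm6 was at 0.01 ± 0.13, with 9.77 and 9.89 against 9.74 and 9.93. Cdc6, which loads the helicase onto origins, had the lowest value of this group (-0.32 ± 0.18), and its arrays overlapped because wild-type replicate 1 (7.33) lay below Tet2-deficient replicate 1 (7.35). Among the genes of S phase entry, Ccne2 (cyclin E2) was at 8.46 and 8.37 against 7.86 and 8.21 (-0.38 ± 0.15), without overlap. Its partner gene Ccne1 (cyclin E1) was at -0.09 ± 0.14 and E2f1, an activating E2F factor, at 0.01 ± 0.13, both with overlapping arrays.

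Among mitosis genes in Th1 cells, the spindle checkpoint and kinetochore group had the lowest median of the 4 roles, -0.45 over 9 genes, all below 0. Ttk was at 6.86 and 7.07 on the wild-type and 6.29 and 6.46 on the Tet2-deficient arrays, the largest difference of the 54 (-0.59 ± 0.14, 1.51-fold, unadjusted p = 0.0013, adjusted p = 0.797 by limma). Bub1, a kinase that holds back anaphase until chromosomes are attached, was at 7.69 and 7.83 against 6.91 and 7.53 (-0.54 ± 0.19). Cenpe, a kinetochore motor, was at 6.96 and 7.39 against 6.46 and 6.90 (-0.50 ± 0.20). In all 3 genes the Tet2-deficient arrays lay below both wild-type arrays, and Tet2-deficient replicate 1 was the lowest of the 4. Cdc20, which activates the anaphase-promoting complex, was the exception in this group, at -0.08 with overlapping arrays.

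The 9 spindle motor and cytokinesis genes, such as Kif11 (the motor that pushes spindle poles apart, -0.43), Tpx2 (a spindle assembly factor, -0.45) and Kif20a (a cytokinesis motor, -0.26), were all below 0, with a median of -0.42 and no overlap between genotypes in any of the 9. The 4 chromosome structure genes had a median of -0.44. Mki67, which encodes the proliferation marker Ki-67, was at 9.68 and 9.95 on the wild-type and 9.23 and 9.45 on the Tet2-deficient Th1 arrays (-0.48 ± 0.17), without overlap. Top2a, the topoisomerase that untangles sister chromosomes, was at 9.74 and 10.01 against 9.27 and 9.66 (-0.41 ± 0.21). The cyclins and kinases of mitotic entry had a median of -0.30 over 10 genes. Foxm1 was at 7.48 on both wild-type arrays and at 6.99 and 7.18 on the Tet2-deficient arrays (-0.39 ± 0.15). Cdk1 was at 9.25 and 9.67 against 9.35 and 9.03 (-0.27 ± 0.21), with overlap, and Cdc25b, a phosphatase that activates Cdk1, was the only mitosis gene above 0 (0.15 ± 0.17).

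Genes with and without the promoter letters were set side by side as a description. The 21 genes with a CHR match had a median log2 fold change of -0.38 between genotypes in Th1 cells, against -0.21 for the 24 genes without one. The 9 genes with an E2F-type match had -0.07, against -0.35 for the 36 without. CHR matches lie mostly in mitosis genes, so a difference by motif cannot be told apart here from one between both sets. Genes with and without a match were not compared within a set.

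In Th17 cells, 29 of 32 mitosis genes had a log2 fold change above 0 between genotypes, with a median of 0.19, but only 1 Tet2-deficient array lay higher. The centred mitosis median was 0.36 on Tet2-deficient replicate 2. On Tet2-deficient replicate 1 it was -0.17, below the wild-type arrays (-0.10 and -0.14). Of the replication genes 14 of 22 were above 0, and their median was 0.03. By limma, 0 of 54 genes were called at an adjusted p under 0.05, as were 0 of all genes (0%), and 4 of the 54 had an unadjusted p under 0.05 in the higher direction (2.6% of all genes) and 0 in the lower (1.53% of all genes). Tet2-deficient arrays lay above both wild-type arrays for 6 of 54 genes, 3 replication and 3 mitosis genes, against 18.8% of all genes. The largest value was that of Cdc25b, at 7.63 and 7.69 on the wild-type and 8.06 and 8.69 on the Tet2-deficient Th17 arrays (0.72 ± 0.17, 1.64-fold, adjusted p = 0.728 by limma). Bub1 was at 7.23 and 7.22 against 7.43 and 7.89 (0.44 ± 0.19), without overlap. Kif20a was at 7.51 and 7.79 against 7.78 and 8.26 (0.37 ± 0.16), where Tet2-deficient replicate 1 lay between the wild-type arrays. Nusap1, a spindle microtubule protein, had 0.30 ± 0.19 and Cenpf, a kinetochore protein, 0.29 ± 0.12.

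For 29 of the 32 mitosis genes in Th17 cells, the arrays of both genotypes overlapped. Mki67 was at 9.38 and 9.31 against 9.29 and 9.80 (0.19 ± 0.17). Top2a was at 9.71 and 9.50 against 9.38 and 10.10 (0.14 ± 0.21), and Cdk1 at 9.14 and 8.84 against 8.74 and 9.39 (0.08 ± 0.21). In each of these 3 genes the Tet2-deficient arrays enclosed the wild-type arrays. Without replicate 2 the median of the mitosis genes was -0.07 and that of the replication genes -0.11, and without replicate 1 the mitosis median was 0.45. With the share of female RNA, computed from Xist, as a covariate the mitosis median was 0.02 and the replication median -0.07. This share was highest on Tet2-deficient replicate 2, so this fit is not separate from the one without that array. The natural killer marker Klrd1 was at 6.30 and 6.51 on the wild-type and 7.25 and 8.07 on the Tet2-deficient Th17 arrays, with replicate 2 the higher, as for all 32 mitosis genes (1.25 ± 0.20, adjusted p = 0.183 by limma). Klrc1 (0.46 ± 0.17) and Klrc2 (0.45 ± 0.11) of that list of 8 were also highest on replicate 2. Eomes was lowest there, at 6.80 and 7.03 against 6.97 and 6.66. Ncr1 and Klrb1c were at or under 4.81 on every array, and Klra8 was at 4.53 on both Tet2-deficient Th17 arrays. Of the 8 markers 6 were above 0 and 2 below, and their part in the mitosis values was not tested. Among replication genes, Mcm6 (0.22 ± 0.13), Mcm3, another helicase subunit (0.22 ± 0.12), and Tk1 (0.20 ± 0.13) had the largest values above 0, each without overlap, and Prim1 was lowest (-0.14 ± 0.19). Tk1 has a second probe set with a value of -0.06, opposite in sign. Pcna (-0.03), E2f1 (-0.10), Rrm2 (0.15), Tyms (0.05), Cdc6 (0.03), Mcm2 (0.07), Ccne1 (0.04) and Foxm1 (0.16) lay between -0.10 and 0.16.

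The Th17 effect of Tet2 deficiency minus the Th1 effect was above 0 for 32 of 32 mitosis genes, with a median of 0.56 and a range from 0.17 to 0.98, and for 18 of 22 replication genes, with a median of 0.19. The median over all genes was 0.00. By limma, 0 of 54 genes were called for this difference, as were 0 of all genes (0%), with a smallest adjusted p of 0.999 among the 54. An unadjusted p under 0.05 in the positive direction was found for 21 of 54 genes (19 mitosis and 2 replication genes), against 2.58% of all genes. Bub1 had the largest difference (0.98 ± 0.27, unadjusted p = 0.00325). Bub1b, a checkpoint kinase (0.74 ± 0.23), Ttk (0.73 ± 0.20) and Ccna2, cyclin A2 (0.72 ± 0.25), followed. In the replication set, Rrm2 (0.62 ± 0.24) and Tyms (0.53 ± 0.23) had the largest differences. Rrm1 (0.38 ± 0.20) and Cdc6 (0.36 ± 0.25) came next, while Mcm2 (0.09), Pcna (-0.01) and E2f1 (-0.11) were near 0. By role, the median was 0.62 for checkpoint, 0.61 for motor, 0.61 for chromosome structure and 0.45 for mitotic entry genes. It was 0.46 for nucleotide supply, 0.22 for S phase entry, 0.21 for polymerase and 0.10 for helicase genes. Without Tet2-deficient Th17 replicate 2 the mitosis median was 0.28, and without replicate 1 of that group it was 0.87.

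**Figure D3:**
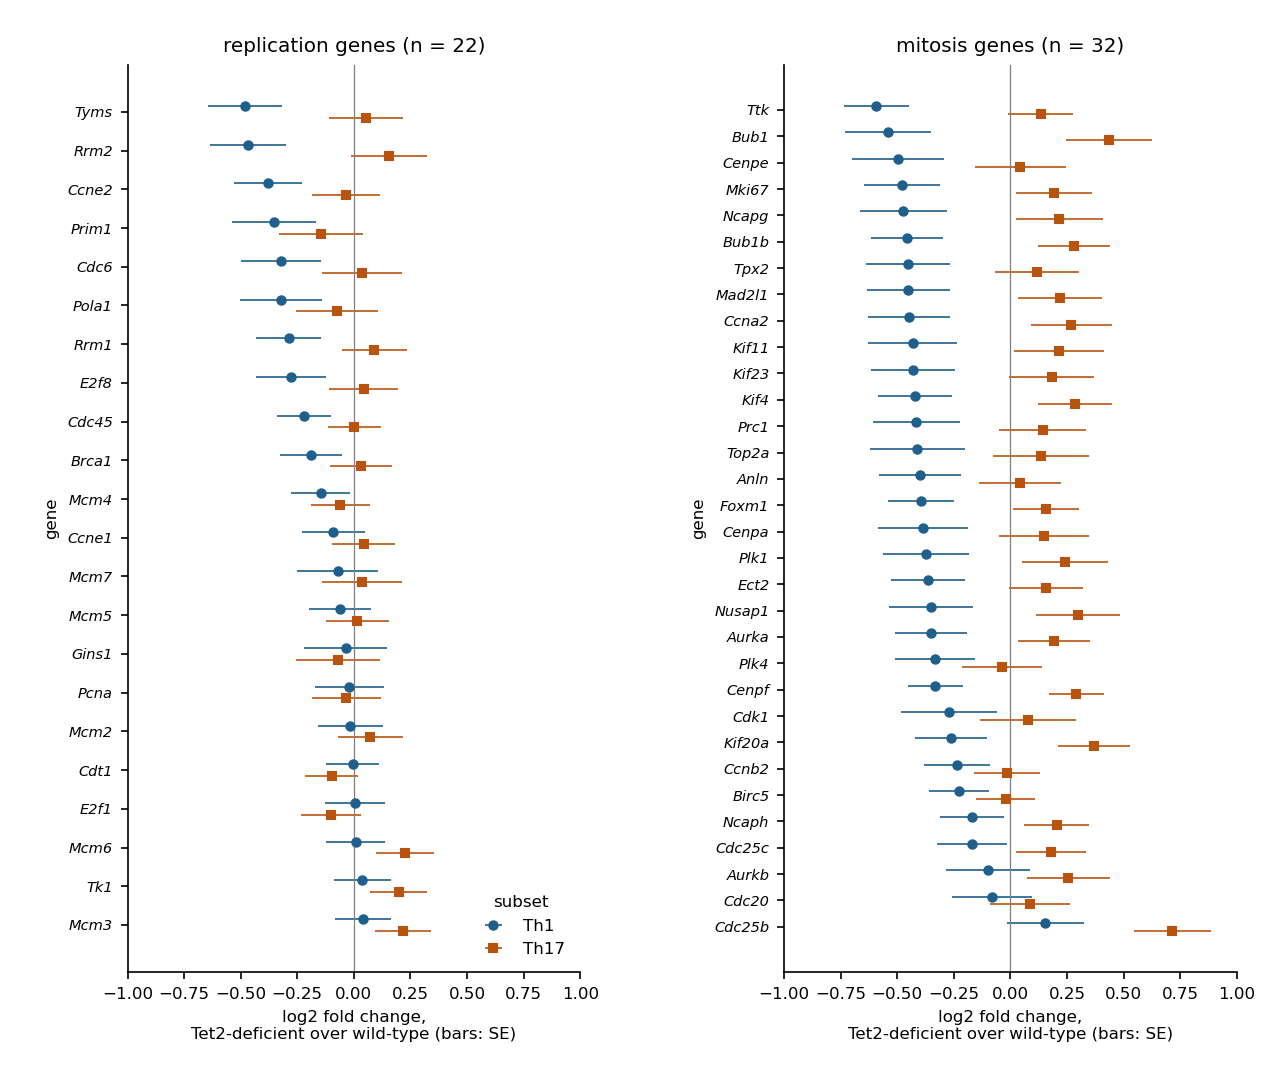
Each row is a gene and the x axis is the log2 fold change of Tet2-deficient over wild-type cells, with bars of 1 SE, in Th1 (circles) and Th17 cells (squares), for replication genes (left) and mitosis genes (right). Among mitosis genes the Th1 values lie from -0.59 (Ttk) to 0.15 (Cdc25b) and the Th17 values from -0.04 to 0.72, and no gene passed the test in either subset.

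Between the subsets in wild-type cells, cyclin E genes and 2 mitosis genes were lower in Th17 than in Th1 cells. Limma called 4 of 54 genes lower (3.44% of all genes) and 0 of 54 higher (4.97% of all genes), the latter with 0 of 54 at an unadjusted p under 0.05. Ccne2 fell from 8.46 and 8.37 on the Th1 arrays to 7.70 and 7.49 on the Th17 arrays, a log2 fold change of -0.82 ± 0.15 (1.77-fold, adjusted p = 0.0053). Ccne1 fell from 9.06 and 9.26 to 8.48 and 8.46 (-0.69 ± 0.14, adjusted p = 0.0092). Both encode the E cyclins that, with Cdk2, start S phase. Ttk fell from 6.86 and 7.07 to 6.41 and 6.36 (-0.58 ± 0.14, adjusted p = 0.026), and Foxm1 from 7.48 and 7.48 to 6.74 and 7.16 (-0.53 ± 0.15, adjusted p = 0.044). Of these 4, without wild-type Th1 replicate 2 only Ccne2 was called, without wild-type Th17 replicate 2 only Foxm1, and without wild-type Th17 replicate 1 only Ccne1 and Ccne2. When any other array was left out Ccne1, Ccne2 and Ttk were called and Foxm1 was not. Over these fits the log2 fold change ran from -0.93 to -0.72 for Ccne2, from -0.78 to -0.59 for Ccne1 and from -0.69 to -0.48 for Ttk. That of Foxm1 ran from -0.74 without wild-type Th17 replicate 2 to -0.32 without replicate 1 of that group. When all probe sets were tested 0 of the 4 were called, with adjusted p from 0.0687 to 0.151. With the share of female RNA, computed from Xist, as a covariate 6 genes were called lower, these 4 with Ccna2 and Plk1.

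Of the genes that were not called, 16 of 20 replication genes (median -0.10) and 29 of 30 mitosis genes (median -0.24) lay below 0, against a median over all genes of -0.03. With the called genes included the medians were -0.15 and -0.26. Without wild-type Th1 replicate 2 the median of all 22 replication genes was -0.031, without replicate 1 of that group -0.30, and without wild-type Th17 replicate 2 -0.091. Th17 arrays lay below both Th1 arrays for 9 replication and 22 mitosis genes, 31 of 54 against 28.4% of all genes. Among genes that did not pass, Ccna2 had -0.56 ± 0.18, Bub1 -0.54 ± 0.19, Mki67 -0.47 ± 0.17, Cdk1 -0.47 ± 0.21, Rrm2 -0.46 ± 0.17 and Tyms -0.47 ± 0.16. Cdc45, a helicase cofactor, was at 8.25 and 8.21 against 7.83 and 7.84 (-0.39 ± 0.12, adjusted p = 0.0602 by limma). E2f1 (-0.27 ± 0.13), Cdc6 (-0.31 ± 0.18), Pcna (-0.17 ± 0.15), Top2a (-0.26 ± 0.21) and Mcm2 (-0.08 ± 0.14) did not pass either. Mcm6 (0.12 ± 0.13), Mcm3 and Cdc25b were above 0. This comparison and the Th1 comparison of genotypes share the wild-type Th1 arrays, of which replicate 2 is above replicate 1 for 25 of 32 mitosis genes, so the lower values in both are not independent.

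In Tet2-deficient cells, Ccne1 was again lower in Th17 than in Th1 cells, and 3 mitosis genes were higher. Limma called 1 of 54 genes lower (1.85%, against 3.79% of all genes) and 3 of 54 higher (5.56%, against 6.32% of all genes). Both shares were under those of all genes. Ccne1 fell from 9.16 and 8.98 to 8.36 and 8.67 (-0.55 ± 0.14, adjusted p = 0.024). Cdc25b rose from 7.69 and 7.71 to 8.06 and 8.69 (0.68 ± 0.17, adjusted p = 0.025). Cenpf rose from 6.15 and 6.26 to 6.50 and 6.80 (0.45 ± 0.12, adjusted p = 0.035), and Kif20a from 7.35 and 7.56 to 7.78 and 8.26 (0.56 ± 0.16, adjusted p = 0.043). For each of the 3 the Th17 arrays lay above both Th1 arrays, with Tet2-deficient Th17 replicate 2 the highest of all 8 arrays. Cenpf was above the median gene on that array alone.

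The 3 higher calls were lost without that array and in a fit with the share of female RNA as a covariate. That share was set to 100% on this same array and was 14.7% on Tet2-deficient Th17 replicate 1. The 2 fits are therefore not separate, and the sex of the RNA cannot be told apart from other traits of that array. Of the 8 natural killer markers, 5 were above 0 and 3 below in this comparison, with 1 called higher and 2 lower. Klrd1 was at 5.89 and 5.97 on the Tet2-deficient Th1 arrays and rose to 7.25 and 8.07 on the Tet2-deficient Th17 arrays (1.73 ± 0.20, adjusted p = 0.000207 by limma). Prf1 (-0.83 ± 0.15) and Eomes (-1.40 ± 0.13) fell, and Eomes was lowest (6.66) on the array where Klrd1 was highest. Ncr1 was at 4.57 and 4.69 and Klrb1c at 4.18 and 4.01 on the Tet2-deficient Th17 arrays. Whether natural killer cells were present, and their part in the result, was not tested. Without Tet2-deficient Th17 replicate 2 only Ccne1 was called, and Cdc25b was at 0.36, Cenpf at 0.30 and Kif20a at 0.33. Without replicate 1 of that group 8 genes were called, all mitosis genes and all higher, and without Tet2-deficient Th1 replicate 1 none of the 54 was. Without Tet2-deficient Th1 replicate 2 only Ccne1 and Bub1 were called. With the share of female RNA as a covariate 0 of 54 were called, with Cdc25b at 0.32 and Ccne1 at -0.72 (adjusted p = 0.0573, against 0.00912 to 0.244 over all alternatives). When all probe sets were tested 0 were called, and quantile normalization applied again gave 1 higher and 3 lower in place of 3 and 1. Bub1b, at 7.23 and 7.22 against 7.50 and 7.99 (0.52 ± 0.16), did not pass (adjusted p = 0.0593 by limma) and was called with a block on replicate number.

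Of the mitosis genes that were not called in Tet2-deficient cells, 25 of 29 were above 0, with a median of 0.20, and of the replication genes 14 of 21, with a median of 0.06. With the called genes included the mitosis median was 0.22. Th17 arrays lay above both Th1 arrays for 3 replication and 10 mitosis genes, 13 of 54 against 25.8% of all genes. None of the following passed. Nusap1 had 0.51 ± 0.19, Bub1 0.44 ± 0.19, Mki67 0.20 ± 0.17, Top2a 0.28 ± 0.21 and Foxm1 0.02 ± 0.15. Of the replication genes, Ccne2 had -0.47 ± 0.15, E2f1 -0.38 ± 0.13, Mcm6 0.34 ± 0.13 and Mcm3 0.29 ± 0.12. Rrm2 (0.16), Tyms (0.06), Cdc6 (0.05), Pcna (-0.18), Mcm2 (0.00) and Cdk1 (-0.12) lay nearer to 0. The 2 subset comparisons use different arrays for their means but 1 estimate of the spread from all 8 arrays. The 2 calls of Ccne1, with values of -0.69 and -0.55, are therefore not independent. The 2 values differed by 0.13 ± 0.20, an adjusted p of 0.999 by limma.

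**Figure D4:**
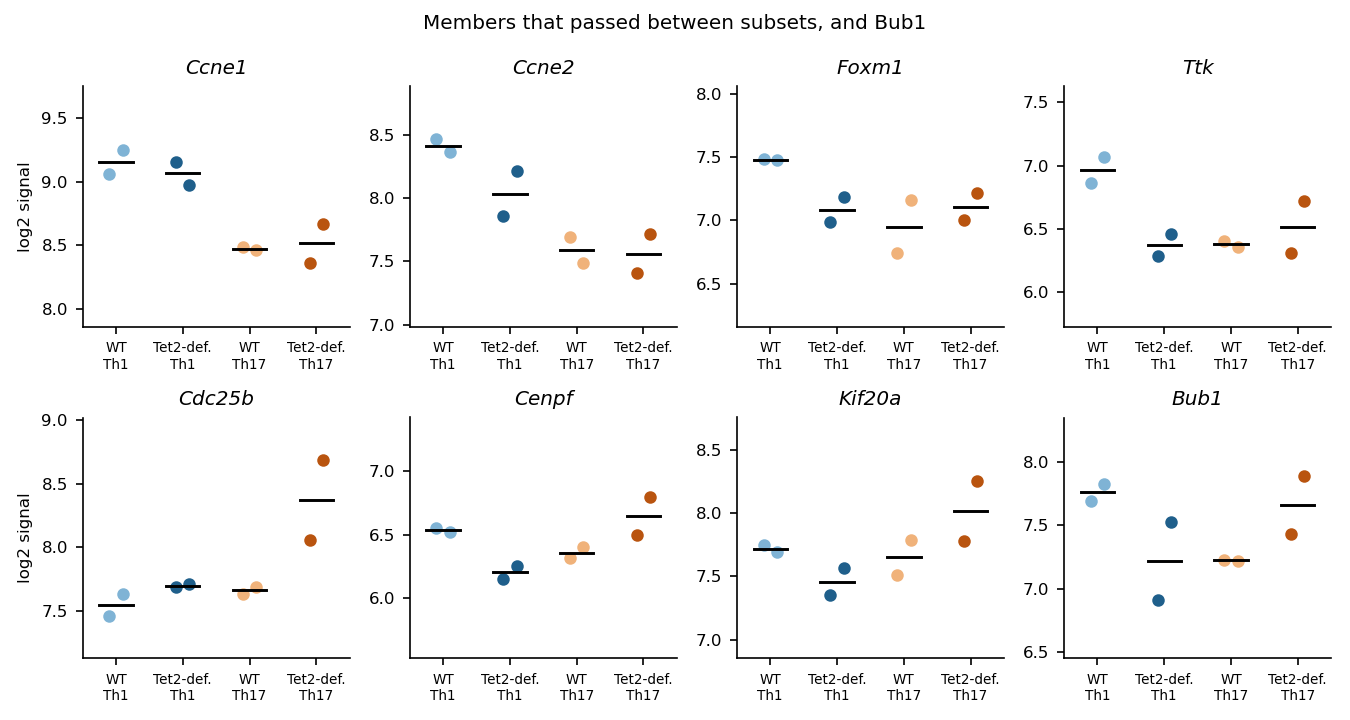
Log2 signal (y axis) of the 7 genes called between subsets and of Bub1, with 1 point per array and a bar at the mean of the 2 arrays of each group (x axis). Ccne1 is at 8.36 to 8.67 on the 4 Th17 arrays and at 8.98 to 9.26 on the 4 Th1 arrays, while Cdc25b reaches 8.69 on Tet2-deficient Th17 replicate 2 and lies at or under 8.06 on the other arrays.

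Further lists held replication genes (47 of 50 measured) and mitosis genes (57 of 58 measured) that are not among the 55. Their medians lay on the same side of 0 as those of the sets above. They were read on the same arrays, so an array that is high or low for such genes moves both. On Tet2-deficient Th17 replicate 2, 45 of the 47 and 55 of the 57 were higher than on replicate 1. The lists were also chosen with earlier results of these data known, so they are no separate check of the values above. In Th1 cells, 36 of the 47 further replication genes were below 0 between genotypes (median -0.13) and 53 of the 57 further mitosis genes (median -0.27), with 0 called in either. Of all genes, 45.9% were below 0 there. The largest were Blm, a helicase that resolves replication intermediates (-0.46 ± 0.17), Arhgap11a (-0.54 ± 0.20) and the centromere gene Cenpi (-0.51 ± 0.18). In Th17 cells 45 of 57 further mitosis genes were above 0 (median 0.11, 0 called), led by the chromosome motor Kif22 (0.40 ± 0.13). Of the further replication genes 25 of 47 were above 0 (53.2%, median 0.02), near the 54.4% of all genes. Between subsets in wild-type cells, 2 of the 57 fell (3.51%, near the 3.44% of all genes called lower), Cenpi (-0.78 ± 0.18, adjusted p = 0.0177) and Ube2c, which marks mitotic proteins for destruction (-0.49 ± 0.13, adjusted p = 0.037), and 0 of the 47 were called. In Tet2-deficient cells 3 of the 47 rose (6.38%, near the 6.32% of all genes called higher): Dck, which salvages deoxycytidine (0.86 ± 0.12, adjusted p = 0.000791), Rpa3, which coats single-stranded DNA (0.51 ± 0.13, adjusted p = 0.029), and the clamp loader gene Rfc4 (0.51 ± 0.14, adjusted p = 0.0422). Of the 57, 1 gene (1.75%) rose, Kif22 (0.59 ± 0.13, adjusted p = 0.0116). The adjusted p-values are limma's over all genes.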

How the data were processed

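The deposited values are log2 probe-set signals of 35556 probe sets on 8 arrays. GCOS, RMA and Affymetrix Expression Console are named, per the submitters' processing notes, and their order, options and versions are not given in the sources used here. RMA draws all arrays onto 1 distribution, so a shift shared by most genes would not be seen. Of the probe sets, 21789 carry 1 symbol, 1621 several and 12146 none. The highest-mean probe set was kept for each of 19938 genes (999 had several), of which 19856 matched RefSeq's gene table by gene ID. Group means were fitted with limma 3.58.1 in R 4.3.3 (lmFit, eBayes with trend, 4 residual and 8.32 prior degrees of freedom) for 5 contrasts, two-sided, with Benjamini-Hochberg adjustment over all genes and a threshold of 0.05. The number of arrays limits the precision. Replicate numbers are shared by all groups, but the deviations of same-numbered arrays correlated between -0.186 and 0.0613, so no block was used.

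The genes and lists were chosen with earlier results of these data known. Named genes were those called, up to 4 of each set with the largest change where fewer passed, 13 measured genes fixed by name and the 3 largest of each further list. Other genes were named after their values were seen. List genes without a single-symbol probe set were not analysed here. The share of female RNA was set to 100% on the array with the highest linear Xist signal and was 0.187% and 42.9% on wild-type and 14.7% on the other Tet2-deficient Th17 array. Alternatives were a replicate block, only the arrays compared, a filter at the median level, mean or all probe sets, quantile normalization again, centring, eBayes without trend or robust, the female share as a covariate and leaving out each array.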

Additional observations from a re-analysis of the deposited data

Results flagged for a closer look

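Bub1 and Cenpf were the genes of the 54 whose Tet2-deficient arrays both lay below both wild-type arrays in Th1 cells and both above them in Th17 cells, 2 of 54 (3.7%) against 550 of 19938 genes (2.76%). The Th17 effect minus the Th1 effect was 0.98 ± 0.27 for Bub1 and 0.62 ± 0.17 for Cenpf on the log2 scale. By limma's test of the difference itself, the unadjusted p was 0.00325 and 0.00328 and the adjusted p 0.999 for both, so neither passed.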

How the results depend on the processing

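In 18 alternative settings, no named gene, called or not, changed sign with both values more than 1 SE from 0. Of 1548 values for named genes, 1491 kept their side of the threshold, 41 lost and 16 gained a call, and 73 turned sign within 1 SE of 0. Only genes called in the fit as reported could lose a call, so the 41 losses are not a share of all 1548 values. They belong to the 4 genes called between subsets in wild-type and the 4 in Tet2-deficient cells. With all probe sets tested, 0 genes were called between subsets in wild-type and 0 in Tet2-deficient cells. With the female share as a covariate 6 were called in wild-type cells and 0 in Tet2-deficient cells. In the latter the mitosis median turned to -0.049. Leaving out 1 array at a time gave 1 to 4 calls in wild-type and 0 to 8 in Tet2-deficient cells. The replication median then ran from -0.30 to -0.031 in wild-type cells. In Tet2-deficient cells it ran from -0.095 to 0.19, and the mitosis median from -0.037 to 0.51. Between genotypes in Th17 cells the replication median ran from -0.11 to 0.14 and the mitosis median from -0.074 to 0.45. For the difference between the effects they ran from 0.040 to 0.31 and from 0.28 to 0.87. Between genotypes in Th1 cells the replication median ran from -0.22 to -0.027 and the mitosis median from -0.53 to -0.27. With a replicate block, 4 genes were called between subsets in wild-type cells and 5 in Tet2-deficient cells, which adds Bub1b. Same-numbered arrays were not treated as paired in the fit as reported (correlations from -0.186 to 0.0613). With 2 arrays per group, these correlations cannot show whether such arrays were prepared together. The difference between effects could not be fitted on the compared groups alone, since it uses all 4. The cause of these changes was not tested beyond the arrays left out.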

Other observations

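Of the genes that hold cells in G1 or control its length, a further list of 24 of which 23 were measured, 5 rose in Th17 against Th1 wild-type cells by limma (21.7%, against 4.97% of all genes called higher) and 0 fell (3.44% of all genes). The other 18 did not pass, and the median of the 23 was 0.07. The list was chosen with earlier results of these data known, so its share beside that of all genes is only a description. Of the 5, Rbl2, a relative of the retinoblastoma protein that represses E2F targets, had 1.44 ± 0.15 (adjusted p = 8.3e-05 by limma). Cdkn1b, which encodes the Cdk inhibitor p27, had 1.09 ± 0.14 (adjusted p = 0.000365 by limma). Ccng2, an atypical cyclin of resting cells (0.93 ± 0.16), Rb1, the retinoblastoma gene (0.72 ± 0.14), and the antiproliferative gene Btg2 (0.50 ± 0.12) also rose. In Tet2-deficient cells these 5 genes rose too, Ccng2 (1.55 ± 0.16), Cdkn1b (1.41 ± 0.14), Rb1 (1.04 ± 0.14), Rbl2 (0.79 ± 0.15) and Btg2 (0.66 ± 0.12), and Ccnd2, cyclin D2, fell (-0.48 ± 0.13, adjusted p = 0.0365). Of all genes, 6.32% were called higher and 3.79% lower there, and the median of the 23 was 0.02.

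Between genotypes 0 of the 23 were called in either subset. In Th17 cells Rbl2 had -0.77 ± 0.15 (adjusted p = 0.398 by limma) and Ccng2 0.56 ± 0.16 (adjusted p = 0.79), and 4 genes in the higher and 1 in the lower direction had an unadjusted p under 0.05, as did 2.6% and 1.53% of all genes. In Th1 cells the largest value was that of the Cdk inhibitor gene Cdkn2b (0.45 ± 0.12, adjusted p = 0.797).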
